A study of Mus musculus with 40 samples.

Results

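The fibroblast growth factor (FGF) genes followed here were 10: the ligands Fgf4, Fgf5, Fgf8, Fgf15 and Fgf17, the receptors Fgfr1, Fgfr2, Fgfr3 and Fgfr4, and Fgfbp1, a secreted protein that binds FGFs. They were chosen by gene symbol, and 9 of the 10 had an identified gene probe, among 13817 genes with a symbol on all designs. The early arrays held probes of 9 members, the late arrays of 8 and the arrays of the Nanog experiment of 9. Fgfr1 was not analysed here on any design, nor was Fgfr2 on the late arrays. FGF ligands bind receptor tyrosine kinases together with heparan sulfate and signal through the Ras-ERK cascade, which switches on its own inhibitors and ETS factors. In mouse ES cells Fgf4 is made by the undifferentiated cells and promotes their exit from self-renewal, Fgf5 marks the primed epiblast, and Fgf8, Fgf15 and Fgf17 are known from gastrulation and patterning of the embryo.

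ZHBTc4 ES cells, in which the only active Pou5f1 copy is a transgene that tetracycline (Tet) shuts off, were grown with LIF and measured before Tet (0 hr) and 3, 6, 12 or 24 hr after it (early arrays, 2 per time, 10 in all), and before Tet and 24 to 120 hr after it in steps of 24 hr (late arrays, 3 per time, 18 in all). The late labels name the ZHBTc4 line, and the early ones name an Oct3/4 knockout in the same 129/Ola strain. In the Nanog experiment, 4 lines were measured with 1 array in each of 3 media, with LIF, without LIF and with LIF plus 1 µM retinoic acid (RA), which gave 12 arrays. The lines were a clone labelled as carrying Nanog on an episomal vector, MG1.19 as its parental line (both 129Sv), a clone with an integrated Nanog transgene on a pEF6 plasmid, and ES 129.3 as its parental line (both 129SvEv-Tac). Each transgenic group is 1 clone, the parental arrays had been submitted before with another experiment, and the medium with RA differs from that without LIF in 2 components. For the media the 4 lines stand in for replicates. A clone and its parental line are related, so p-values of the Nanog experiment may be too small. Each value is log2(Cy3/Cy5), the sample over a common mouse reference RNA, and only values of the same probe were compared. A probe was called changed at a limma adjusted p of 0.05 or less and a change of at least 1.5-fold, and "probe 1" is the brightest probe of a gene on its design, so that its sequence can differ between designs. Whether the samples came from separate cultures is not given in the sources used here, so the p-values measure the spread between these samples. In cultures, fewer cells of a type and less RNA per cell cannot be told apart.

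The labels were checked on single genes. Pou5f1 read 1.91 to 2.40 at 0 hr against -0.30 to 0.09 at 24 hr on the late arrays. On the early arrays its probe 1 read 3.97 on both arrays before Tet, and 3.46 and 3.38 at 24 hr. Its probe 2 started from 2.92 and 1.52, had dropped to 0.29 and 0.48 by 3 hr, and ended at -0.53 and -0.61, so the early time course was as labelled by this probe. Socs3, a LIF target, was at 0.42 to 1.04 with LIF and at -2.25 to -1.64 without it, and Cyp26a1, an RA target, was at 2.61 to 3.10 with RA. The Nanog probe read 2.48, 2.00 and 2.49 in the integrated clone against 1.61, 1.83 and 1.27 in ES 129.3, but 1.28, 1.47 and 0.66 in the clone labelled episomal against 1.91, 1.93 and 1.26 in MG1.19, so this probe does not show the overexpression that label names. Whether that probe lies in the transgenes is not given in the sources used here. The ES 129.3 array with LIF stood apart in several members, among them Fgf5 and Fgf8. Over the 4 lines with LIF, ES cell markers averaged 2.45 to 3.21, and feeder fibroblast markers -2.59 to -1.62.

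On GRCm38.p6, Fgf4 (chr7:144861386-144865245) and Fgf15 (chr7:144896532-144900953) lie on chromosome 7, and Fgfr2 lies on the same chromosome (chr7:130162451-130266808). Fgfbp1 (chr5:43978858-43981828), Fgf5 (chr5:98254184-98277033) and Fgfr3 (chr5:33721724-33737068) share chromosome 5. Fgf8 lies at chr19:45736491-45742941, Fgf17 at chr14:70636203-70642268 and Fgfr4 at chr13:55152818-55168759.

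The first 30 bases of the 60-base probes are shown for the genes whose probes behaved differently, since the results depend on which probe a design held.
Fgfbp1, probe on all 3 designs: caatgcatgtcataatatgcaagcaaggaa
Fgfbp1, probe on the early and Nanog arrays: agtccttaatgtgggccaagactgtgggag
Fgf5, probe on the early and Nanog arrays: tgcgacccaggagcttaattcgggaatgtg
Fgf5, probe on the late and Nanog arrays: aaaggaaaactccatgcaagtgccaaattt
Fgf15, probe on all 3 designs: cccttttccacttataaatgtcagatggaa
Fgf15, probe on the early and Nanog arrays: aggatgtagaccacctagtgaagagtccca
The Fgfbp1 probe found on all designs has 35.0% G and C, and is probe 1 on the early arrays and probe 2 in the Nanog experiment. The other Fgfbp1 probe has 60.0% and is probe 2 and probe 1 there.

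The promoters of Fgfbp1 and Fgf5, which were called on the Tet arrays, and of Fgf4, the ligand of the undifferentiated cells, from 250 bases before to 50 after the start site in RefSeq on GRCm38.p6, are printed for comparison, with matches to TATAAA and GGGCGG on either strand in capitals.
Fgfbp1, chr5:43981750-43982049, minus strand: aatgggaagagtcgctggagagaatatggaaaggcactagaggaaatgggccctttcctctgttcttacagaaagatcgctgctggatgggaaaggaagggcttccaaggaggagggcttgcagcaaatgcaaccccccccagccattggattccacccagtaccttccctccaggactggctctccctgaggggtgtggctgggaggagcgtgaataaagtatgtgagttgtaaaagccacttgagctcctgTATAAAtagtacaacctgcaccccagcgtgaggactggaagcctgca
Fgf5, chr5:98253934-98254233, plus strand: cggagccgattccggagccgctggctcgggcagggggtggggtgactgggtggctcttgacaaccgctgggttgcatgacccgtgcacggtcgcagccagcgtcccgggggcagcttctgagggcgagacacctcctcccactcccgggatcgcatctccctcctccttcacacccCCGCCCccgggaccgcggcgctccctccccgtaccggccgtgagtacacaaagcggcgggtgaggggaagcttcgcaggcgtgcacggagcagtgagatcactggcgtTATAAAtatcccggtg
Fgf4, chr7:144861136-144861435, plus strand: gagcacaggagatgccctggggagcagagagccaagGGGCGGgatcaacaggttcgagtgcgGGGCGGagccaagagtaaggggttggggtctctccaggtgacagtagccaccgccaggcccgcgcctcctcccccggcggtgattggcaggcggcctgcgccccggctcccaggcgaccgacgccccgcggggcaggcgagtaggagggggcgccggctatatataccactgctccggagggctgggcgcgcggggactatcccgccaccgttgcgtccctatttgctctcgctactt
The Fgfbp1 promoter held 53.3% G and C with 4 CpG sites, against 68.3% with 29 sites for Fgf5 and 69.7% with 28 sites for Fgf4. Over all 32851 promoters the medians were 52.7% and 7 sites. TATAAA occurred in the promoters of Fgfbp1 and Fgf5 and in 13.6% of all promoters. The matches lay downstream of the start site used, at position 3 in Fgfbp1 and 34 in Fgf5. GGGCGG occurred in those of Fgf5 and Fgf4 and in 35.7% of all. The octamer ATGCAAAT, the letters CATTGT and the letters GGAATG, also searched on both strands, were in none of the 3 promoters and in 1.74%, 12.6% and 14.7% of all. No printed match overlapped another.

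After Pou5f1 suppression on the late arrays, Fgfbp1, which releases FGFs bound to the matrix, rose, and more than any other member. Its single probe there read -0.19, -0.40 and -0.03 at 0 hr, then 1.46, 1.53 and 1.31 at 24 hr. The 48 hr arrays read 3.39, 3.47 and 3.48, and those of 72 hr 3.33, 3.38 and 3.45. Later arrays read 3.00, 3.15 and 2.93 at 96 hr, and 2.58, 2.82 and 2.78 by 120 hr. All arrays from 24 hr on lay above all arrays at 0 hr, and the 120 hr arrays lay below those at 72 hr. The change against 0 hr was 1.64 ± 0.09 (SE, n = 3 each; adjusted p = 6.8e-10) at 24 hr, 3.66 (adjusted p = 1.6e-14) at 48 hr and 2.94 (adjusted p = 4.2e-14) at 120 hr. The Cy3 channel alone moved by 4.03 and the Cy5 reference by 0.37 at 48 hr. Over the 18 late arrays the profile was most like those of Dkk1, a secreted Wnt inhibitor (Pearson r = 0.977), Cdc42se1 (0.976) and Rassf1 (0.973), among 3433 genes.

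Across any time, Fgfbp1 was the only 1 of the 8 members on the late arrays to be called, beside 24.6% of all probes. Fgf4, the ligand of the undifferentiated cells, also passed the F test (adjusted p = 0.012) but not the 1.5-fold limit. It read -0.01, 0.23 and 0.24 at 0 hr against -0.10, -0.41 and -0.14 at 48 hr, groups that did not overlap, with a difference of -0.37 ± 0.08 (SE; adjusted p = 0.0021). By Cy3 alone Fgf4 passed both limits, and its Cy3 channel was lower at every time, by -0.42 to -0.64 in the log2 mean. Its Cy5 reference was lower at every time too, by -0.10 to -0.33, so part of the Cy3 move was shared by both channels. Fgf15 stayed between 0.14 and 0.44 on all late arrays, and Fgf8 between 0.03 and 0.20, with 120 hr differences of 0.01 (95% interval -0.12 to 0.13) and 0.02 (-0.08 to 0.13). Fgf8 and the remaining members were dim there. The 95th percentile of negative-control spots was exceeded by Fgf5 on 2 of 18 arrays, by Fgf17 on 10, and by Fgfr3 and Fgfr4 on 0. Fgf8 exceeded it on 15, but its median raw Cy3 was only 1.02 times that limit. A fall of any of these 5 genes could therefore not have been seen. The other differences at 120 hr were 0.02 for Fgf5 (95% interval -0.14 to 0.17), 0.01 for Fgf17 (-0.18 to 0.21), -0.0024 for Fgfr3 (-0.13 to 0.13) and -0.14 for Fgfr4 (-0.37 to 0.10). Trophectoderm markers moved over the same time course. Of 12 measured, 9 were called higher at 120 hr, and their mean went from -0.48 to -0.17 at 0 hr up to 2.27 to 2.42 at 120 hr. Of 9 ES cell markers, 8 were called lower at 120 hr, and their mean went from 2.82 to 3.19 at 0 hr down to 0.54 to 0.55. The part of these markers in the Fgfbp1 values was not tested.

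**Figure D1:**
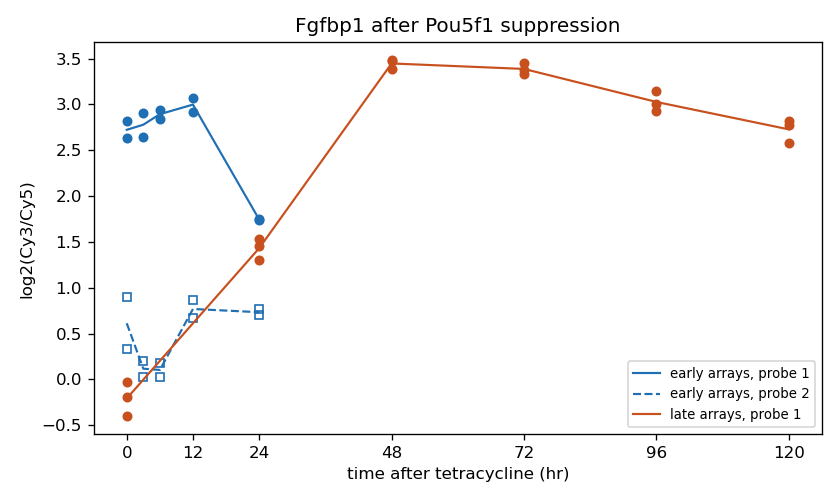
Fgfbp1 after Tet. The x axis is time in hr and the y axis is log2(Cy3/Cy5); points are arrays, lines are means, blue is the early arrays (squares and dashes for probe 2) and orange the late arrays. The same probe starts at 2.63 to 2.82 on the early and at -0.40 to -0.03 on the late arrays.

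On the early arrays 2 of 9 members were called at any time, Fgf5 and Fgfbp1, beside 5.41% of all probes. The Cy5 reference drifted over this time course. On the probes used to gauge Cy5 bleaching, log2 Cy5 around its early mean was 0.80 and 0.84 at 0 hr and -0.46 and -1.08 at 24 hr. After a correction for it, the same 2 members and 2.85% of all probes were called at any time. Fgf5 probe 1 started at 0.66 and 0.35, with 0.38 and 0.27 at 3 hr, then 0.67 and 0.60 at 6 hr. It reached 1.54 and 1.23 at 12 hr, then 0.17 and 0.11 at 24 hr. Both 12 hr arrays lay above all other arrays. The rise at 12 hr was 0.88 ± 0.13 (SE, n = 2 each; adjusted p = 0.022), with 1.01 in Cy3 and 0.13 in Cy5. Its raw Cy3 signal was 545 to 555 at 12 hr against 442 to 453 at 0 hr, against a median negative-control limit of 406. The 12 hr call was lost without background correction (0.28), with the processed signals (1.40, adjusted p = 0.13), with a variance shared by similar probes (adjusted p = 0.81) and without any of 5 single arrays, 2 of them at 0 hr, 2 at 3 hr and 1 at 12 hr (0.72 to 1.04). The late arrays have no array at 12 hr and hold the other Fgf5 probe.

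Fgfbp1 probe 1, with the same sequence as on the late arrays, started at 2.82 and 2.63. It stayed at 2.65 to 3.07 from 3 to 12 hr and reached 1.74 and 1.75 at 24 hr. The 24 hr arrays lay below all others, and the fall was 0.98 on the log2 scale (-0.98 ± 0.11, SE; adjusted p = 0.0010). Probe 2 read 0.90 and 0.33 at 0 hr against 0.70 and 0.77 at 24 hr (0.12, adjusted p = 0.62), so the probes of this gene differed in call, and probe 2 was lower at 3 and 6 hr (-0.50 and -0.51) without passing the test. The call was lost with a variance shared by similar probes (adjusted p = 0.18) and when both probes were averaged (-0.43). At 24 hr the early and late values were close (means 1.74 and 1.43), whereas at 0 hr they were 2.72 and -0.21. The raw Cy3 signal at 0 hr was 1588 to 1713 on the early and 647 to 731 on the late arrays, on different array designs. The negative-control limit of these arrays was 405 and 408 early and 627 to 653 late. The late start thus lay near the limit, and a lower one could not have been seen. On the other member probes shared by both designs the 0 hr means differed by -0.08 to 0.17. Of these, Fgf8, Fgf17, Fgfr3 and Fgfr4 were dim on the late arrays, where ratios can differ little. None had a raw Cy3 signal as high as Fgfbp1 on the early arrays. These probes therefore cannot show whether brighter probes differed between the designs. Of 13 trophectoderm markers, 6 were called higher at 24 hr on the early arrays, and their mean went from 0.50 to 0.55 at 0 hr to 1.23 to 1.35. Their part in the Fgfbp1 values was not tested.

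In the ratio, Fgf4 stayed under 1.5-fold with both of its early probes. Probe 1 read 0.10 and 0.03 at 0 hr against -0.48 and -0.44 at 24 hr (-0.53, adjusted p = 0.0055), and probe 2 read 0.44 and 0.37 at 0 hr against 0.07 and -0.07 at 24 hr (-0.40, adjusted p = 0.023). For probe 1 the Cy5 reference moved by 0.32 and Cy3 by -0.21, so the larger move was in the Cy5 channel. For probe 2 Cy3 moved by -0.70 and Cy5 by -0.295, so the larger move was in the Cy3 channel. By Cy3 alone probe 2 was called at any time. Fgfr2, a receptor known from trophoblast, read 0.24 and 0.15 at 0 hr against 0.64 and 0.79 at 24 hr (0.52, 95% interval 0.24 to 0.80, adjusted p = 0.021). Fgfr4 differed by -0.36 (adjusted p = 0.030), from -0.06 and -0.05 at 0 hr to -0.41 on both arrays. Its Cy3 channel moved by 0.06 and the Cy5 reference by 0.42, so the larger move was in the Cy5 channel. The ratios of the Fgf15 probes differed in sign. Probe 1 read -0.21 and -0.01 at 0 hr against -0.50 and -0.40 at 24 hr (-0.34, adjusted p = 0.045), and probe 2 read 0.09 to 0.26 and then 0.46 to 0.58 (0.35, adjusted p = 0.12). For Fgf15 probe 1 Cy3 moved by 0.14 and Cy5 by 0.48, and for probe 2 Cy3 by -0.05 and Cy5 by -0.39. Here too the larger moves were in Cy5, and Cy3 moved with the sign opposite to the ratio. A spot or array effect shared by both channels can also move single channels, and its part was not tested. The 24 hr difference of Fgf17 was 0.12 (95% interval -0.13 to 0.37), of Fgf8 -0.16 (-0.39 to 0.06) and of Fgfr3 -0.15 (-0.38 to 0.08). Median raw Cy3 of Fgf8 and Fgfr3 was 1.02 and 0.995 times the negative-control limit, so a fall of either could not have been seen.

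**Figure D2:**
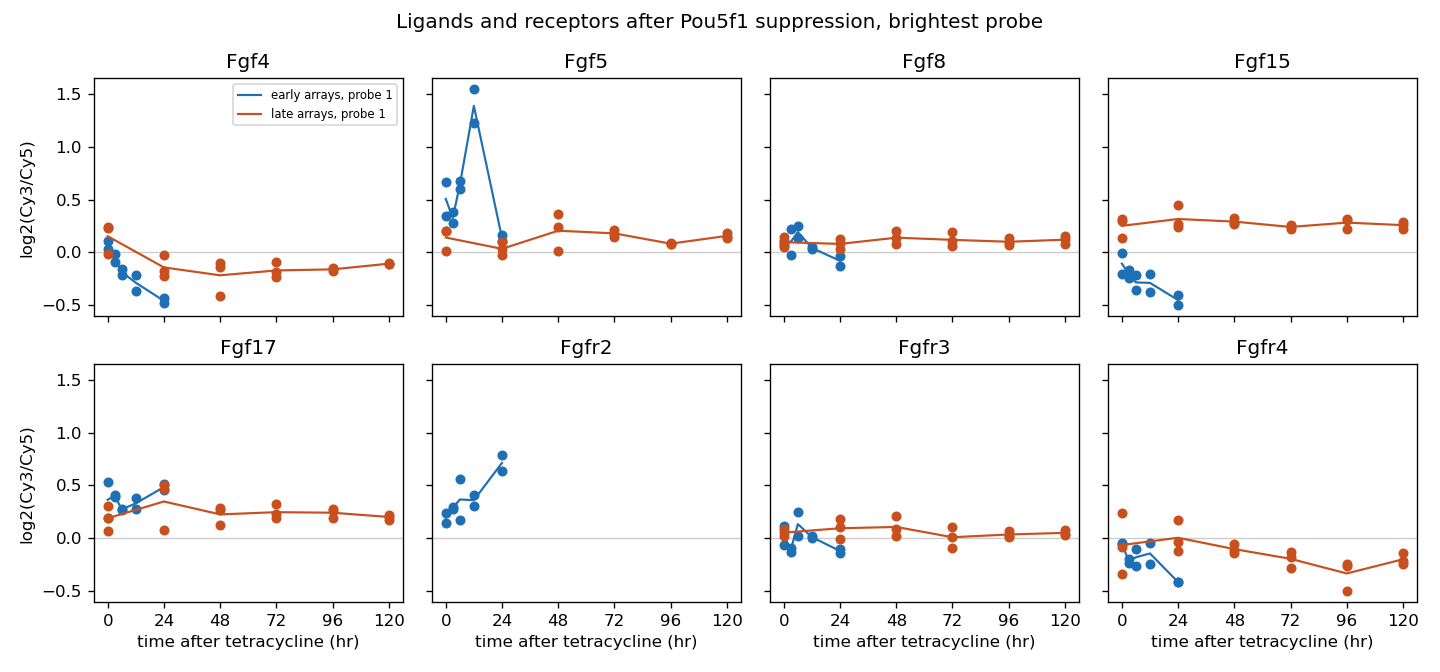
The other members after Tet, brightest probe of each. The x axis is time in hr and the y axis log2(Cy3/Cy5), points are arrays and lines are means of the early (blue) and late (orange) arrays; the Fgf5 and Fgf15 probes differ between the designs. Fgf5 at 12 hr, 1.23 and 1.54, stands above the rest.

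Without LIF, Fgf5 was the 1 member of 9 called, beside 1.04% of all probes, and all 4 lines read higher without LIF. Probe 1 read 0.31 in MG1.19, -0.14 in the clone labelled episomal, 2.51 in ES 129.3 and 0.12 in the integrated clone with LIF. Without LIF the same lines read 3.29, 3.07, 4.00 and 3.16. The line changes were 2.98, 3.20, 1.49 and 3.04, and their mean was 2.68 ± 0.35 (SE; adjusted p = 0.014). Without ES 129.3, whose LIF array already read high, the change was 3.07 and still called, but it was not called when any of the other lines was left out (2.50 to 2.58), nor with a variance shared by similar probes (adjusted p = 0.27). Without background correction it was 1.504 (adjusted p = 0.038). Probe 2, the one on the late arrays, read -0.03, -0.02, 0.37 and 0.10 with LIF and 0.64, 0.61, 1.23 and 0.78 without it. It changed by 0.71 (adjusted p = 0.011; 0.19 and not called without background correction), so the probe used on the late arrays showed a smaller change here than the probe used on the early ones. Markers of primed epiblast and early neural cells moved too: 2 of 10 were called higher, Pim2 and Otx2, and their mean was 0.55 to 1.39 with LIF and 1.40 to 1.71 without. The highest of the LIF values was again ES 129.3, at 1.39. Their part in the Fgf5 values was not tested.

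Fgf8 and Fgf15 were higher without LIF but were not called. Fgf8 probe 1 read 0.07, 0.16, 0.81 and 0.18 with LIF and 1.48, 0.65, 2.12 and 0.31 without it, in MG1.19, the clone labelled episomal, ES 129.3 and the integrated clone. Both parental lines lay above both clones without LIF. The mean change was 0.84 (95% interval 0.23 to 1.44; adjusted p = 0.17), and 0.68 without ES 129.3. Fgf15 probe 2 read 0.35, 0.14, 0.55 and 0.24 with LIF and 0.57, 0.68, 0.90 and 1.48 without it, in the same order of lines, so that all 4 lines lay higher and the integrated clone highest. It changed by 0.59 (adjusted p = 0.11), from 0.22 in MG1.19 to 1.24 in the integrated clone. Fgf15 probe 1, the brighter one, changed by 0.32 (adjusted p = 0.18), from 0.10 in MG1.19 to 0.74 in the integrated clone. Fgf4, Fgf17, Fgfr2, Fgfr3 and Fgfr4 differed by -0.01, 0.03, -0.03, -0.04 and -0.01, with 95% intervals inside -0.18 to 0.16.

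With RA against LIF, 0 of 9 members were called by limma on the brightest probe, beside 5.87% of all probes. At an unadjusted p under 0.05 there was 1 member, and the variance shared by similar probes gave 0 at either limit. Fgfbp1 probe 2 differed by -0.86 (adjusted p = 0.055), with -1.44 in MG1.19, -1.50 in ES 129.3, -0.64 in the clone labelled episomal and 0.15 in the integrated clone. It was called with the background taken from negative controls (-0.91), after a correction for Cy5 bleaching (-0.82), by Cy3 alone (-0.97) and without the integrated clone (-1.19). The Fgf5 difference of -0.25 (95% interval -1.04 to 0.54) was -1.90 in ES 129.3 and 0.06 to 0.49 in the other lines, and without ES 129.3 it was 0.30. The primitive endoderm markers rose on RA, 6 of 9 called, from a mean of -0.47 to -0.25 with LIF to 0.55 to 1.65 with RA. Feeder fibroblast markers rose too, 5 of 9 called, to a mean of -2.02 to -0.52. Of 13 trophectoderm markers 7 were called higher (median over the list 0.72), and of 9 ES cell markers 5 were called lower (median -0.91). The part of these lists in the values was not tested.

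With RA against no LIF, 2 of 9 members were called by their brightest probe, Fgf5 and Fgf8, beside 5.77% of all probes, and 4 by any probe. All of these were lower with RA. Fgf5 read 0.67, 0.36, 0.61 and 0.18 with RA, below every value without LIF, and differed by -2.92 ± 0.35 (SE; adjusted p = 0.0012). Fgf8 differed by -0.97 (adjusted p = 0.043) with probe 1 and -1.03 (adjusted p = 0.036) with probe 2. The Fgf8 call by probe 1 held without the integrated clone (-1.22) but not without any other line (-1.13 to -0.63). It was also lost without background correction (-0.30), by Cy3 alone (-0.90) and with the shared variance (adjusted p = 0.21). In MG1.19, the clone labelled episomal, ES 129.3 and the integrated clone the Fgf8 differences were -1.21, -0.49, -1.98 and -0.20, larger in both parental lines than in both clones. Fgf15 probe 2 fell by 0.87 on the log2 scale (adjusted p = 0.0075), and probe 1 differed by -0.45 (adjusted p = 0.020), under 1.5-fold. Fgfbp1 probe 2 differed by -1.14 (adjusted p = 0.017), and its probe 1 by -0.14 (adjusted p = 0.19). Leaving out the clone labelled episomal, MG1.19 or ES 129.3 ended the Fgfbp1 call (-1.15 to -1.03), as did the processed signals (-3.30, adjusted p = 0.13), the study's normalized table (-2.67, adjusted p = 0.066) and the shared variance (adjusted p = 0.12). Fgf15 probe 2 was called without each line in turn, but not without background correction (-0.27) or with the shared variance (adjusted p = 0.075). Of 10 primed epiblast and early neural markers, 4 were called lower with RA than without LIF, whereas 7 of 9 primitive endoderm, 5 of 13 trophectoderm and 3 of 9 feeder fibroblast markers were called higher. Their part in the values was not tested. The receptors Fgfr2, Fgfr3 and Fgfr4 differed by 0.07, -0.03 and 0.06, with intervals inside -0.16 to 0.19. Fgfr3 lay near the negative-control limit (median raw Cy3 418.9 against 411.7), so a fall of it could not have been seen.

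**Figure D3:**
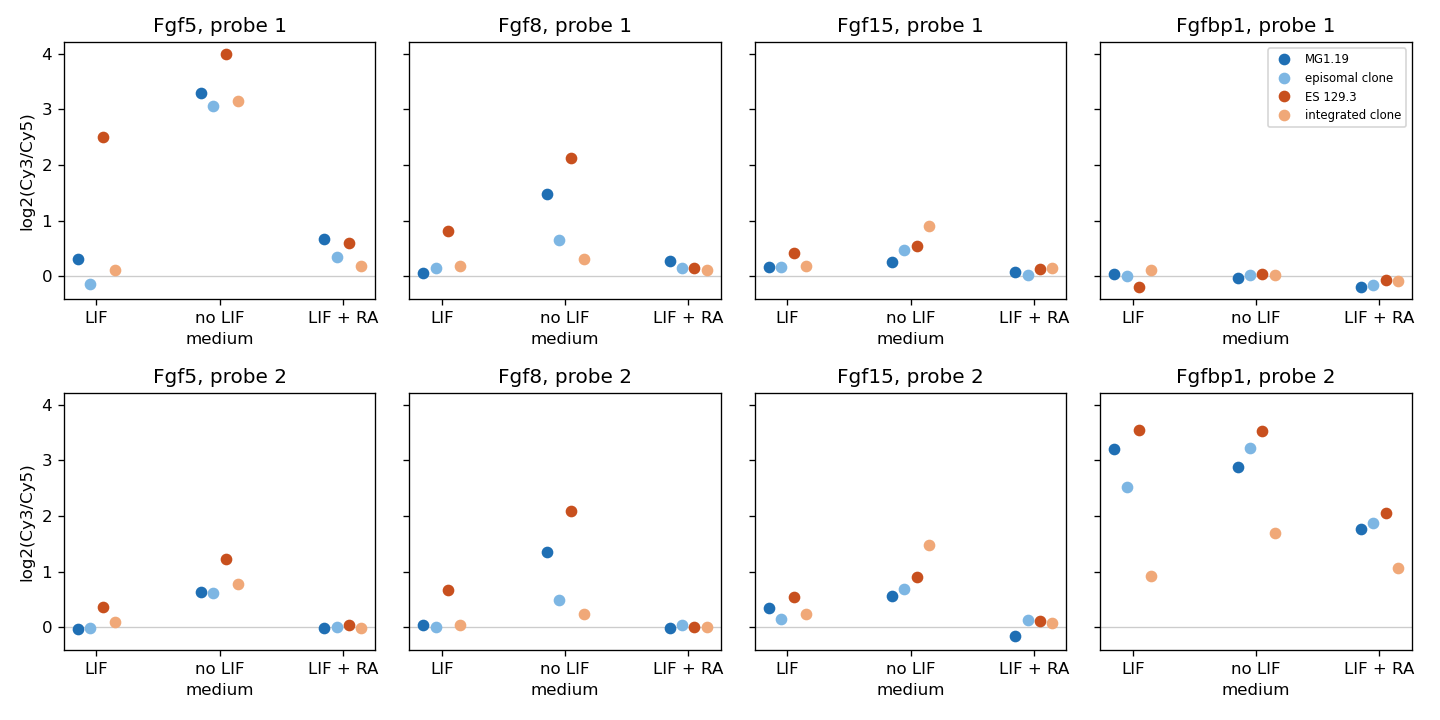
The 4 members with the largest differences between media. Columns are genes, rows are probe 1 and probe 2, the x axis is the medium, the y axis log2(Cy3/Cy5), and each point is 1 array, coloured by line. Fgf5 probe 1 reads 3.07 to 4.00 without LIF, and ES 129.3 reads 2.51 with LIF.

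**Figure D4:**
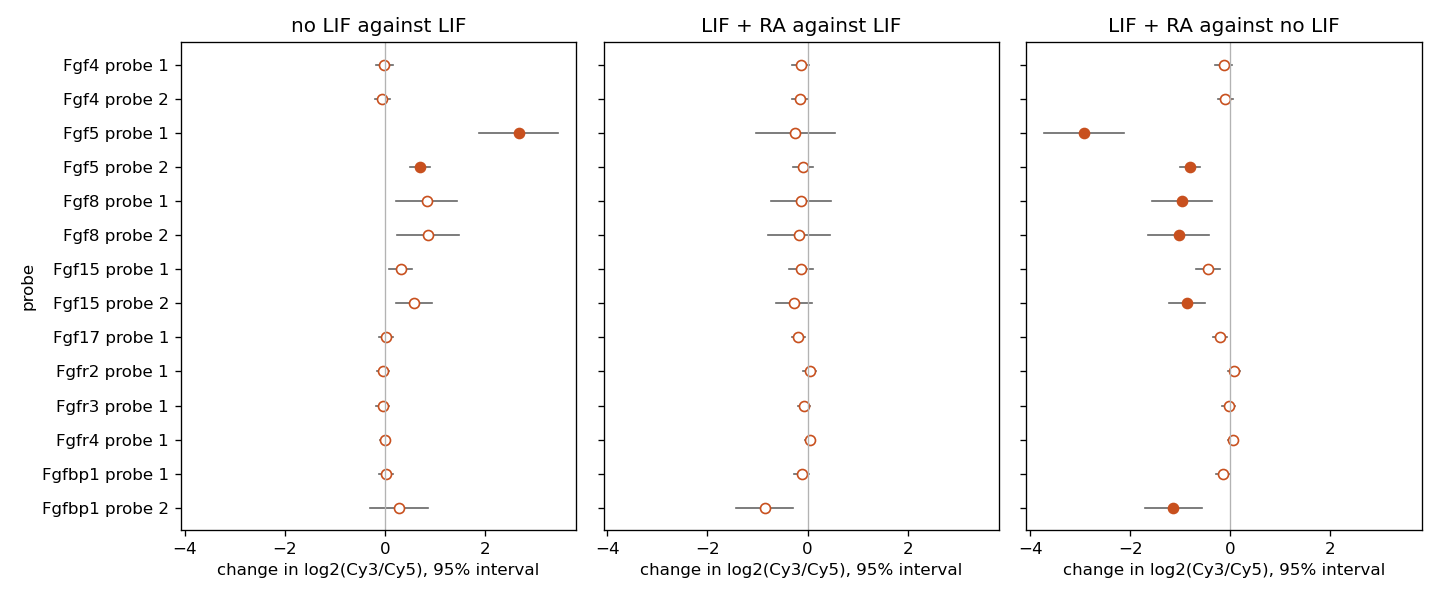
Change of each probe between media with its 95% interval from limma. The x axis is the change in log2(Cy3/Cy5), rows are probes, and filled points were called; the Fgf5 probes are filled without LIF (2.68 and 0.71), and 0 points are filled for RA against LIF.

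Between the Nanog clones and their parental lines, 0 of 9 members were called by their brightest probe, beside 0.00488% of all probes. At an unadjusted p under 0.05 there was 1 member, and 0 with the variance shared by similar probes. For the difference between the clones, 0 of 9 were called, beside 0.812% of all probes, with 1 and 0 in the same order. Over the 3 pairs of the integrated clone alone, where 4.57% of all probes were called, Fgfbp1 probe 2 was called. The clone read 0.92 with LIF, 1.70 without LIF and 1.07 with RA, and ES 129.3 read 3.54, 3.53 and 2.05. All 3 pairs were lower, by -1.81 ± 0.32 (SE; adjusted p = 0.019). These pairs are the integrated clone and ES 129.3 in 3 media, so the SE and p-value measure the spread over media and not between clones. On the RA array of this clone the scanner software called the spot not well above background in either channel, and without that pair the difference was -2.22. Without the pair with LIF (-1.40) or without LIF (-1.80), the call was lost. It was also lost without background correction (-1.19, adjusted p = 0.061), with the processed signals (-4.65, adjusted p = 0.085) and with the shared variance (adjusted p = 0.31). The clone labelled episomal differed by -0.08 (95% interval -0.83 to 0.68), and the difference between clones, 1.73, was not called (adjusted p = 0.16). Probe 1 of Fgfbp1 differed by 0.10 in the integrated clone. Fgf4 probe 1 was higher in the integrated clone, 0.55, 0.47 and 0.12 against 0.04, -0.03 and -0.02, by 0.38 (adjusted p = 0.044), under 1.5-fold. Its probe 2 differed by 0.23 (adjusted p = 0.067). Fgf5 probe 1 was lower in all 3 pairs of the integrated clone, by -2.39 with LIF, -0.84 without LIF and -0.42 with RA (-1.22, adjusted p = 0.078), and by -0.63 without the pair with LIF. Fgf8 probes 1 and 2 both differed by -0.82 (adjusted p = 0.21 and 0.23), by -1.81 and -1.84 in the pair without LIF. In these pairs 4 of 9 ES cell markers were called higher, Nanog among them, and 4 of 9 feeder fibroblast markers lower, and their part in the values was not tested. The receptors differed by -0.06 for Fgfr2, -0.11 for Fgfr3 and 0.04 for Fgfr4, with 95% intervals within -0.27 to 0.17.

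Of the other genes of the pathway, feedback and target genes were lower on the late arrays. At 120 hr 8 of 11 were called lower and 0 higher, with a median of -0.93 against -0.000759 over all probes, where 20.7% of all probes were called. Etv5, an ETS factor downstream of ERK, changed by -3.96 (adjusted p = 1.1e-16), Egr1, an immediate early gene, changed by -3.81 (adjusted p = 3.6e-11), and Dusp6, an ERK phosphatase, changed by -1.54 (adjusted p = 3.7e-09). Of 9 co-receptors and binding proteins, 3 were higher at 120 hr and 0 lower, namely Sdc4 (1.65), Gpc1 (0.87) and Gpc4 (0.63). Among 9 heparan sulfate enzymes, Ext2 rose (0.76), and Sulf2 (-1.47), Sulf1 (-0.84) and Hs6st1 (-0.73) fell. In the Ras-ERK cascade 3 of 13 genes were higher, Ptpn11 (1.04), Nras (0.93) and Braf (0.86). The 15 other FGF ligands measured had a median of -0.04 and did not pass the test at 120 hr. At 24 hr 4 of 11 feedback and target genes were called lower on the late arrays, Dusp4 (-0.74) among them, beside 3.61% of all probes lower and 4.0% higher. On the early arrays at 24 hr 2 of 14 were called higher, Dusp4 (0.64) and Spred2 (0.60), and 2 lower, Etv1 (-1.71) and Il17rd (-0.59), beside 7.04% of all probes higher and 1.97% lower. After the Cy5 bleaching correction these shares over all probes were 1.23% and 1.34%. The difference between the time courses was not tested.

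In the Nanog experiment, 4.64% of all probes were called higher and 1.23% lower with RA against LIF, and 0.505% and 0.532% without LIF. With RA against LIF, 3 of 14 feedback and target genes were higher, Dusp4 (adjusted p = 0.013), Dusp6 (0.80) and Fos (0.68), and 4 lower, the largest being Etv5 (-1.91), Etv1 (-1.10) and Etv4 (-0.93). Of 9 co-receptors 3 were higher with RA, Gpc4 (1.61), Sdc2 (1.10) and Gpc3 (0.83), as were 3 of 10 heparan sulfate enzymes, Hs6st2 (1.84), Hs6st1 (1.35) and Ext2 (1.07). Sos2 (1.24) and Frs2 (0.68), adaptors between receptors and Ras, were the 2 of 15 cascade genes called. Without LIF, Fgf13 (0.60) was called among 16 other ligands, and Il17rd (0.89), an FGF inhibitor, among 14 feedback and target genes.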

How the data were processed

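RNA of 40 arrays of 3 Agilent mouse array designs was analysed. The authors scanned them with Agilent Feature Extraction A.7.5.1 and deposited, per spot, mean signals, background and processed signals as intensity. They also deposited normalized tables in log10 units, of which 1 column counts as score because 10 of its cells hold a missing-value code. No genome build is given for the array files in the sources used here. Cy3 was the sample and Cy5 the reference, with no dye swap. Values were recomputed from the intensity columns with limma 3.58.1 in R 4.3.3: normexp (offset 50), loess within arrays, outlier spots missing, spots of a probe averaged. lmFit and eBayes fitted each time against 0 hr, media with line as a block, and clones with pairs as a block, with Benjamini-Hochberg adjustment over all probes. The F test over times and 1.5-fold at some time gave the calls at any time. Scripts were tested on simulated data. The array number limits the precision. Every probe of every member was tested, but not every probe is printed for each comparison. Up to 3 rises and 3 falls are named per pathway list. Members and lists were chosen with earlier results of these data known. The labels pair the integrated clone with ES 129.3 by strain, whereas the series design text names other parental lines. The treatment text given for the late samples is about a different construct. Symbols came from accessions, identical probes on another design or the study's tables. The alternatives are given in the closing section. One result of the pathway lists is not reported here.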

Additional observations from a re-analysis of the deposited data

Results flagged for a closer look

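Fgfbp1, read by the same probe sequence, went opposite ways from 0 to 24 hr in the 2 Tet experiments: every early array at 24 hr lay below those at 0 hr and every late array above. The early change minus the late change was -2.62 on the log2 scale, and this difference was not tested.

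Among 42 sets of 4 lines in 1 medium, 7 had a line far from the other lines by Dixon's criterion. For independent values chance gives about 1 in 20. Here the lines are related and the sets share arrays and genes, so the 7 cannot be set against that rate. With LIF, ES 129.3 was the outlying line for Fgf5 probe 1 (2.51), both Fgf8 probes (0.81 and 0.66) and Fgf15 probe 1 (0.42). The others were Fgf15 probe 2 with RA in MG1.19 (-0.15), Fgf4 probe 1 with RA in the integrated clone (0.12) and Fgfbp1 probe 1 without LIF in MG1.19 (-0.021). Each line and medium has 1 array, so the line and the array cannot be told apart.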

How the results depend on the processing

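No called difference changed its sign under the alternatives. Of differences that were not called, those of early Fgfr4 (0.03), Fgf15 probe 1 (0.12) and Fgf15 probe 2 (-0.07) at 24 hr did by Cy3 alone, as did Fgf15 probe 2 after the bleaching correction (-0.05). Fgf5 probe 1 with RA against LIF did with processed signals (0.10), with the study's table (0.090) and when a line was left out (-0.49 to 0.30, the highest without ES 129.3). The late count of members called (1) became 2 by Cy3 alone. The early count (2) became 1 without background correction, 1 with the mean over all probes of a member and 0 with a variance shared by 500 similar probes. Without LIF the count (1) became 0 with that variance. With RA against no LIF the count (2) became 1 without background correction, 1 with that variance and 4 with the mean over all probes. Leaving out 1 array, line or pair gave 1 to 1 late, 2 to 2 early, 0 to 1 without LIF, 0 to 0 with RA, 1 to 2 with RA against no LIF, and 0 to 0 for the clones and for their difference. With the replicate number as a block the counts stayed at 1 late and 2 early. The mean correlation of deviations between same-numbered samples was 0.114 early and 0.151 late, with 12 of 20 and 28 of 45 pairs over 0.1. Between other-numbered samples it was -0.114 and -0.069. Over all probes this block raised the early calls at any time from 2270 to 3250. These values do not settle whether the numbers pair the samples. Slide and Feature Extraction date as a block were not run, since each slide held 1 array and in the Nanog experiment the date coincides with the strain. Background from negative controls was added after the data were seen and kept all 7 counts. Signals near the negative controls limit how large a fall can appear, mainly on the late arrays. The same limit holds for Fgf8 and Fgfr3 on the early arrays and for Fgfr3 in the Nanog experiment. With LIF, raw Cy3 went down to 422 for Fgf5 probe 1 and 426 for Fgf8 probe 1, against a median limit of 412. A fall of these 2 genes with RA against LIF was therefore limited too.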
